A study of Homo sapiens with 18 samples.

Results

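Long non-coding RNAs (lncRNAs) are transcripts without a long reading frame, and 6 of them were followed here through OVCAR5 human ovarian cancer cells that had been given stearate, oleate, the SCD1 inhibitor CAY10566 or a combination. The 6 genes were DLGAP1-AS2, SCIRT, LINC02454, NEAT1, MALAT1 and GAS5, out of 60483 gene identifiers measured, of which 1293 were lncRNA genes with enough signal to be tested. The first 3 were selected on measured values of these same samples: DLGAP1-AS2 on its level with stearate against control, SCIRT on its level with oleate against control, and LINC02454 on its level with CAY10566 against DMSO in the presence of stearate. Those comparisons are therefore given as a description, with no test. NEAT1, MALAT1 and GAS5 were taken along as well-known lncRNAs regarded as abundant. Each of the 6 had a row in the table and each passed the filter of a mean of at least 1 TPM, a unit that gives a transcript's share of all transcripts after division by its length.

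Stearate is a saturated fatty acid, and stearoyl-CoA desaturase (SCD1) turns it into oleate by adding a double bond; CAY10566 blocks that step. LncRNAs act in several ways: some scaffold nuclear bodies, some carry small RNAs in their introns, and many lie beside or across a coding gene and have no settled function. NEAT1 is the scaffold of paraspeckles, nuclear bodies that hold RNA-binding proteins and edited RNA, and MALAT1 collects in the nuclear speckles that store splicing factors. GAS5 is spliced from a gene whose introns carry small nucleolar RNAs (snoRNAs), guides for the modification of ribosomal RNA, and its own spliced RNA is known as a target of nonsense-mediated decay. SCIRT takes its name from a stem cell inhibitory transcript of breast cancer. DLGAP1-AS2 is read antisense to DLGAP1, a gene of neuronal synapses, and LINC02454 is an intergenic lncRNA with little known of its role.

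The 18 samples comprised 3 replicates of each of 6 conditions: the vehicle DMSO or CAY10566 was given without fatty acid, with stearate (stearate+DMSO and stearate+CAY10566) or with oleate (named likewise). Fatty acids were given at 50 µM and CAY10566 at 1 µM for 24 h, and all cells were of 1 cell line in medium with albumin free of fatty acids. Control below means the 6 samples without fatty acid, that is DMSO and CAY10566 together, and the stearate and oleate groups likewise pool the samples with and without the inhibitor. The authors' methods state that every treatment was done in triplicate. The labels do not say whether replicates were separate cultures, so the spread between them, which is all that the p-values measure, may be technical. TPM adds up to the same total in every sample and keeps no read counts, so the depth behind a value is unknown. Size factors computed from the values ranged from 0.94 to 1.06, and the third replicate of CAY10566 (1.02) stood apart from the other 5 control samples (0.94 to 0.97). All 5 epithelial markers were present, from 37.4 TPM for the lowest sample of CDH1 to 1004 TPM for the highest of KRT8. Of 5 serous ovarian markers only PAX8 passed the filter (7.64 to 16.9 TPM), while WT1, MUC16, ESR1 and SOX17 had means between 0.041 and 0.632 TPM. Of 10 stromal, endothelial and immune markers, COL1A1, ACTA2 and CD68 passed and COL1A2, COL3A1, PDGFRB, PECAM1, PTPRC, CD3E and MS4A1 had means of 0.326 TPM or less.

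The promoter windows of DLGAP1-AS2, SCIRT and LINC02454 differed in base composition and in short motifs. RefSeq gives a promoter window, 250 bases before and 50 after a transcript start on GRCh38.p14, for 5 of the 6 genes, and the windows of these 3 are shown because they are the genes selected for a response. The RefSeq window of DLGAP1-AS2 lies on chromosome 18 (chr18:3603487-3603786, plus strand), that of SCIRT on chromosome 6 (chr6:44074603-44074902, minus strand) and that of LINC02454 on chromosome 12 (chr12:65602619-65602918, plus strand). Each is printed 5′ to 3′ on the strand of its gene. Capitals mark matches, on either strand, to any of 7 short motifs: the AP-1 site TGANTCA, the cyclic AMP response element TGACGTCA, the E-box CACGTG, the EGR1 site GCGTGGGCG, the TEAD core GGAATG, the CCAAT box CCAAT and the SP box GGGCGG.
DLGAP1-AS2: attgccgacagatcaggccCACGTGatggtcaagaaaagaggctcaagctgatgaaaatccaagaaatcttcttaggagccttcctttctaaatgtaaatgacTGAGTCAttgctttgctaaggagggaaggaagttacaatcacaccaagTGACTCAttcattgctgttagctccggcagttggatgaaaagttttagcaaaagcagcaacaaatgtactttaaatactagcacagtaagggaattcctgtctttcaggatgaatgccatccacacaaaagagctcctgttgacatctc
SCIRT: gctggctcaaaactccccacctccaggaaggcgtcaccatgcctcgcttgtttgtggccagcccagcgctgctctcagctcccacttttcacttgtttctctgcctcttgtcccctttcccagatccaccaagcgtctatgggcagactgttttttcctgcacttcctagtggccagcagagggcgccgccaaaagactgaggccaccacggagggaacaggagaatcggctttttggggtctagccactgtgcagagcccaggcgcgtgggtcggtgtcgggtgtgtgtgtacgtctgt
LINC02454: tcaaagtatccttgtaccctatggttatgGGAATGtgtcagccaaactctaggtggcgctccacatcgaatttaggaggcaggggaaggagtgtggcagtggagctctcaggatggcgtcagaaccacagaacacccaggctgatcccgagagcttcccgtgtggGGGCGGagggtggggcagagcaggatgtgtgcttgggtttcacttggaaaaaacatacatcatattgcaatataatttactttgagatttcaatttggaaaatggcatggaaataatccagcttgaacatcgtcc

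The DLGAP1-AS2 window held 2 AP-1 matches, at -147 and -99 from the start, and 1 E-box at -231. Of 35116 RefSeq promoters of that length, 7.71% held an AP-1 match and 7.26% an E-box. Its GC content was 42.0%, against a median of 58.7% over all promoters, and it held 3 CpG dinucleotides. The SCIRT window held no match to the 7 motifs, at a GC content of 59.0% with 13 CpG, and the window of a second RefSeq start of SCIRT (chr6:44003601-44003900, minus strand) had none either. LINC02454 held a TEAD core at -221, as did 14.0% of promoters, and an SP box at -85, as did 45.0%. The cyclic AMP response element, held by 1.85% of all promoters, the EGR1 site, held by 0.795%, and the CCAAT box, held by 34.6%, were not found in the 3 windows. These are matches of letters and say nothing of whether a factor was bound, and starts that other annotations give for these genes were not searched.

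The 6 RNAs differed widely in level. Mean TPM over the 18 samples is a measure per length and can be compared between genes that the library captures alike. By it GAS5 ranked 2 of the 1293 tested lncRNAs (1038 TPM, range 945 to 1152). NEAT1 ranked 18 (127 TPM, 97.1 to 159), DLGAP1-AS2 ranked 24 (86.6 TPM, 62.6 to 123) and MALAT1 ranked 37 (45.2 TPM, 33.8 to 62.4). LINC02454 ranked 179 (11.4 TPM, 7.08 to 14.5) and SCIRT 204 (10.0 TPM, 5.26 to 16.1). In TPM MALAT1, chosen as an abundant RNA, was thus lower than DLGAP1-AS2 in every condition. The library kit selects poly(A) RNA, and MALAT1 and the long form of NEAT1 are known to end in a structure other than a poly(A) tail. Their ranks here therefore need not be those in the cells.

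**Figure D1:**
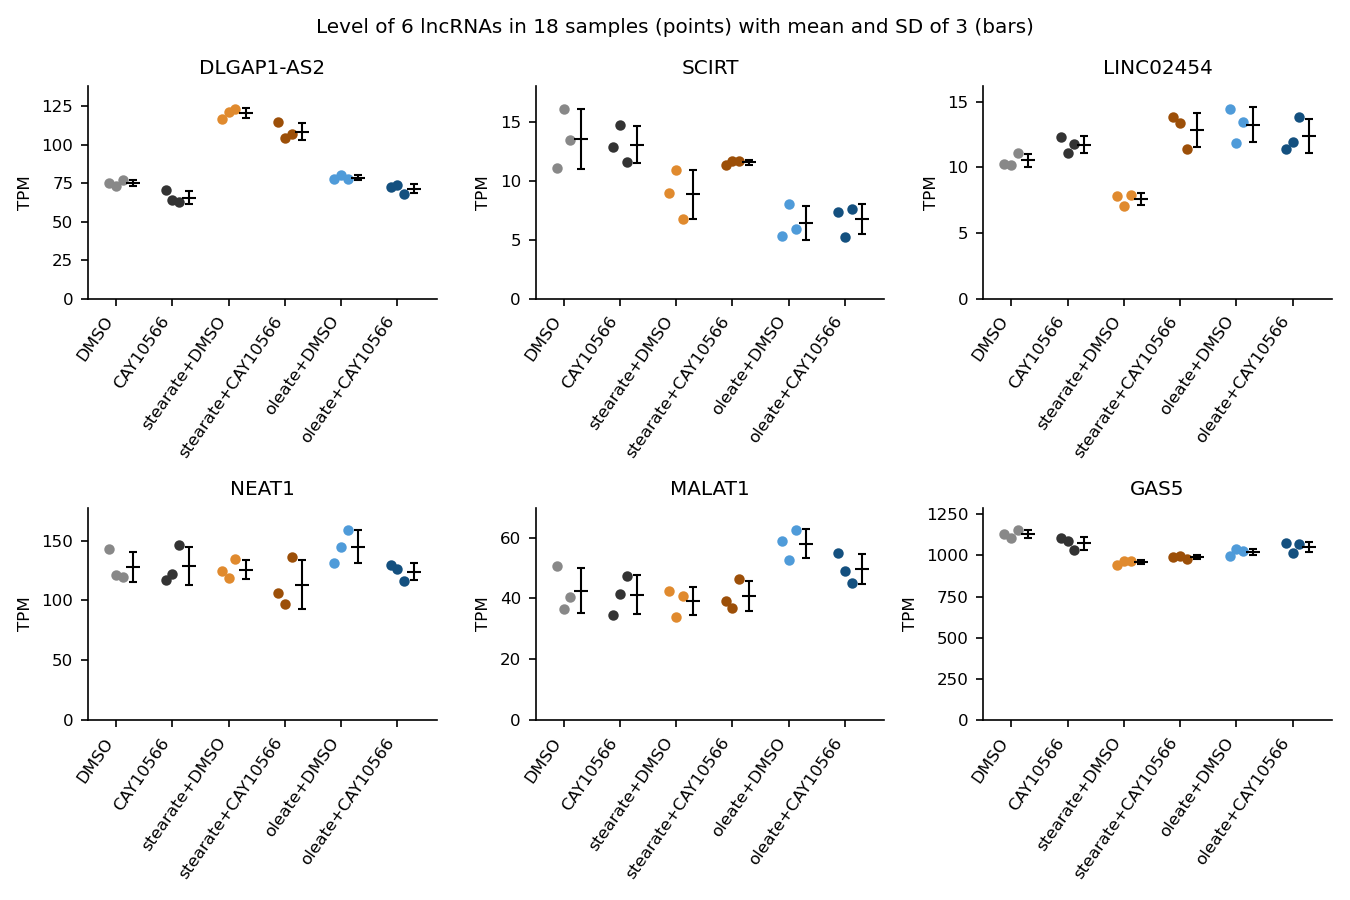
Level of each lncRNA in TPM (vertical axes, from 0) by condition (horizontal axes); points are single samples and the bars beside them give the mean and SD of 3. DLGAP1-AS2 is above 100 TPM in the 6 stearate samples alone, SCIRT is lowest with oleate, and LINC02454 is lowest in the 3 stearate+DMSO samples.

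How many of the 6 passed must be read against the whole table. For stearate against control, 19.4% of the 13789 genes with a mean of at least 1 TPM passed a false discovery rate (FDR) of 0.05 in limma, here termed passing the test, and 5.35% also changed by more than 0.32 on the log2(TPM + 1) scale, here termed called. For oleate the shares were 25.7% and 6.9%, and for stearate against oleate 21.1% and 6.37%. By direction, 13.5% of all genes rose and 5.97% fell with stearate, and 23% rose and 2.7% fell with oleate. With size factors in place of plain TPM 7.92% rose and 10.2% fell with stearate, and 9.07% rose and 9.12% fell with oleate. Of the 5 lncRNAs not selected on stearate, 1 (GAS5) passed for stearate and none was called. Of the 5 not selected on oleate, 2 (GAS5 and MALAT1) passed for oleate and 1 (MALAT1) was called. Of the 4 selected on neither, the same 2 passed for stearate against oleate and MALAT1 was called. The stearate and control groups did not overlap for 7.79% of all genes and the oleate and control groups for 4.06%. Among the lncRNAs this held for DLGAP1-AS2 and GAS5 with stearate and for SCIRT with oleate. Of these GAS5 alone was not selected on that comparison. For a single comparison of 3 against 3 samples no such share of all genes was computed. Groups of 3 without overlap give an exact permutation p of 0.1, so such cases below are description only.

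DLGAP1-AS2 (ENSG00000262001) lies on chromosome 18 from 3603000 to 3610103 on the plus strand (GENCODE release 44, GRCh38), inside the span of DLGAP1 on the opposite strand, and its canonical transcript has 3 exons and 803 bases. It was highest with stearate. The DMSO samples held 75.3, 73.1 and 77.0 TPM, the stearate+DMSO samples 116.5, 121 and 123 TPM and the oleate+DMSO samples 78.0, 80.3 and 77.7 TPM. With CAY10566 the values were 70.5, 64.0 and 62.6 TPM without fatty acid, 114.5, 104 and 107 TPM with stearate and 72.6, 73.7 and 68.1 TPM with oleate. The lowest stearate sample thus lay above the highest of the 12 others. The stearate group averaged 114 ± 7.64 TPM (SD, n = 6) against 70.4 ± 5.93 TPM in control, a difference of 0.69 (SE 0.056) on the log2(TPM + 1) scale, which is the difference the gene was selected on. It was of like size in the DMSO samples (0.67) and in the CAY10566 samples (0.72). Among 378 tested lncRNAs with a mean of at least 5 TPM it was the second largest rise with stearate. In bulk RNA, more or fewer cells with a transcript and more or less of it per cell cannot be told apart.

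With oleate DLGAP1-AS2 did not pass the test. The oleate group held 75.1 ± 4.43 TPM (n = 6), and the difference from control was 0.09 (95% confidence interval -0.02 to 0.21; limma, adjusted p = 0.231; exact permutation test, two-sided, p = 0.154). The control samples are also those of the comparison the gene was selected on. Its sign depended on the scaling: with size factors it was -0.01, and after removal of length and GC trends it was 0.15 (adjusted p = 0.0432).

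DLGAP1-AS2 was lower with CAY10566 than with DMSO in all 3 fatty acid groups, a comparison that played no part in its selection. In each group the 3 CAY10566 samples lay below the 3 DMSO samples. The differences were -0.19 without fatty acid, -0.15 with stearate and -0.14 with oleate on the log2(TPM + 1) scale, each with an exact permutation p of 0.1, the smallest for 3 against 3. Pooled over the groups the difference was -0.16 (SE 0.028, 95% confidence interval -0.22 to -0.10). An exact permutation of the inhibitor labels within the fatty acid groups gave p = 0.00025 (two-sided), the smallest value these 8000 arrangements allow. That test was chosen after the data were seen. Without overlap in any of the groups it could return no other value, so it adds nothing to the separation itself. After adjustment over all 13789 genes the limma p was 0.239 (unadjusted 2.00e-05), so the gene did not pass across the table, and neither did any other. At that threshold 0% of genes passed for CAY10566 against DMSO, with 748 at an unadjusted limma p under 0.05. Samples with CAY10566 lay below those with DMSO in each of the 3 fatty acid groups for 6 of 13789 genes (0.0435%). They were DLGAP1-AS2, TSPAN13, EGR1, YARS1, H2AZ1 and SERPINB7, and the reverse held for TM4SF1 alone; these genes were named after their values were seen. With length and GC trends removed the pooled difference of DLGAP1-AS2 was -0.15 and passed (adjusted p = 0.0497), and without any 1 sample it lay between -0.17 and -0.15 (adjusted p from 0.116 to 0.527).

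SCIRT (ENSG00000237686) spans 143084 bases of chromosome 6, from 43931572 to 44074655 on the minus strand, and its canonical transcript has 3 exons and 838 bases. It was lowest with oleate. The DMSO samples held 11.1, 16.1 and 13.5 TPM and the CAY10566 samples 12.9, 14.7 and 11.6 TPM. With oleate the values were 5.29, 8.07 and 5.90 TPM in DMSO and 7.36, 5.26 and 7.58 TPM in CAY10566, so the 6 oleate samples lay below the 6 control samples. Oleate averaged 6.58 ± 1.24 TPM against 13.3 ± 1.89 TPM in control (n = 6 each), a difference of -0.92 (SE 0.13) on the log2 scale, on which the gene was selected. It was -0.97 in the DMSO samples and -0.87 in the CAY10566 samples. Among the 378 lncRNAs with a mean of at least 5 TPM it was the fourth largest fall with oleate.

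With stearate SCIRT lay between control and oleate. The stearate+DMSO samples held 8.96, 10.9 and 6.74 TPM and the stearate+CAY10566 samples 11.3, 11.7 and 11.7 TPM, and 3 of these 6 were below every control sample. The stearate group averaged 10.2 ± 1.98 TPM, a difference from control of -0.36 (SE 0.13, 95% confidence interval -0.63 to -0.09). It missed the threshold over all genes (limma, adjusted p = 0.0536), while the exact permutation test of this single value gave p = 0.0195. The control samples are those on which, with oleate, the gene was selected, so neither these p-values nor those that follow are independent of its selection. The call turned on single libraries: without DMSO replicate 1, CAY10566 replicate 3 or stearate+CAY10566 replicate 2 the adjusted p was 0.0440, 0.0378 and 0.0456, at differences of -0.41, -0.40 and -0.40. It also passed with size factors (-0.42, adjusted p = 0.0364) and among genes with a mean of at least 5 TPM (adjusted p = 0.0446). The fall was -0.57 in the DMSO samples, whose groups did not overlap, and -0.16 in the CAY10566 samples, whose groups did.

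The CAY10566 effect on SCIRT did not pass the test. Over 9 against 9 samples the difference was 0.13 (95% confidence interval -0.08 to 0.35; limma, adjusted p = 0.984; exact permutation within fatty acid groups, p = 0.258). In the presence of stearate the 3 CAY10566 samples lay above the 3 DMSO samples, by 0.37 (SE 0.17; limma, adjusted p = 0.889, unadjusted 0.0482; exact p = 0.1, the smallest for 3 against 3).

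LINC02454 (ENSG00000256268) lies on chromosome 12 from 65589111 to 65614169 on the plus strand, with 3 exons and 594 bases in its canonical transcript. It was low in a single condition, stearate without the inhibitor. The stearate+DMSO samples held 7.79, 7.08 and 7.87 TPM, and the lowest of the 15 others held 10.2 TPM. With stearate+CAY10566 the values were 13.8, 13.4 and 11.4 TPM, overlapping those of oleate+DMSO (14.5, 11.9 and 13.5 TPM). The DMSO samples held 10.3, 10.2 and 11.1 TPM. The CAY10566 samples held 12.3, 11.1 and 11.8 TPM and the oleate+CAY10566 samples 11.4, 11.9 and 13.8 TPM. Within stearate, CAY10566 thus went with 12.9 ± 1.28 TPM against 7.58 ± 0.435 TPM (n = 3 each), a difference of 0.69 (SE 0.091) on the log2 scale, on which the gene was selected. Genes that passed the threshold in that comparison were 0.0145% of all tested (2 of 13789, with 761 at an unadjusted p under 0.05). LINC02454 was 1 of the 2, from which nothing is read since it was selected there. Without any 1 sample the difference lay between 0.64 and 0.77. It fell short of the threshold without stearate+DMSO replicate 2 or 3, or without stearate+CAY10566 replicate 1 or 2 (limma, adjusted p from 0.0779 to 0.196).

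In the comparisons that did not select LINC02454 the inhibitor effect did not pass the test. Without fatty acid the difference between CAY10566 and DMSO was 0.14 (95% confidence interval -0.05 to 0.34; limma, adjusted p = 0.576) and with oleate it was -0.09 (-0.28 to 0.10; adjusted p = 0.979). At that threshold 0% of genes passed in either group (1399 and 651 at an unadjusted limma p under 0.05). By fatty acid, the order of the group means was oleate (12.8 TPM, range 11.4 to 14.5), control (11.1 ± 0.841 TPM) and stearate (10.2 ± 3.01 TPM), and no neighbours in that order passed the test. Oleate differed from control by 0.19 (limma, adjusted p = 0.308; exact permutation test, p = 0.0281) and stearate by -0.15 (adjusted p = 0.427; exact p = 0.351). In DMSO samples only the oleate difference was 0.30, without overlap, and passed (adjusted p = 0.0302), and in CAY10566 samples only it was 0.0699, with overlap (adjusted p = 0.794). The arms of the pooled stearate value had opposite signs: stearate differed from control by -0.43 among DMSO samples, which passed in the fit of those samples alone (adjusted p = 0.0158), and by 0.12 among CAY10566 samples (adjusted p = 0.622). Stearate and oleate differed by -0.34 (limma, adjusted p = 0.0686; exact p = 0.0801). That comparison passed without stearate+CAY10566 replicate 1 (-0.43, adjusted p = 0.0207) or replicate 2 (-0.42, adjusted p = 0.0257), with CAY10566 as a covariate (adjusted p = 0.0389) and with length and GC trends removed (-0.42, adjusted p = 0.0267). It was -0.73 in DMSO samples only (adjusted p = 0.00159) and 0.0483 in CAY10566 samples only (adjusted p = 0.834). All the fits with stearate samples, against control or oleate, hold samples the gene was selected on. None of their p-values is independent of its selection, and those that passed are given as description.

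**Figure D2:**
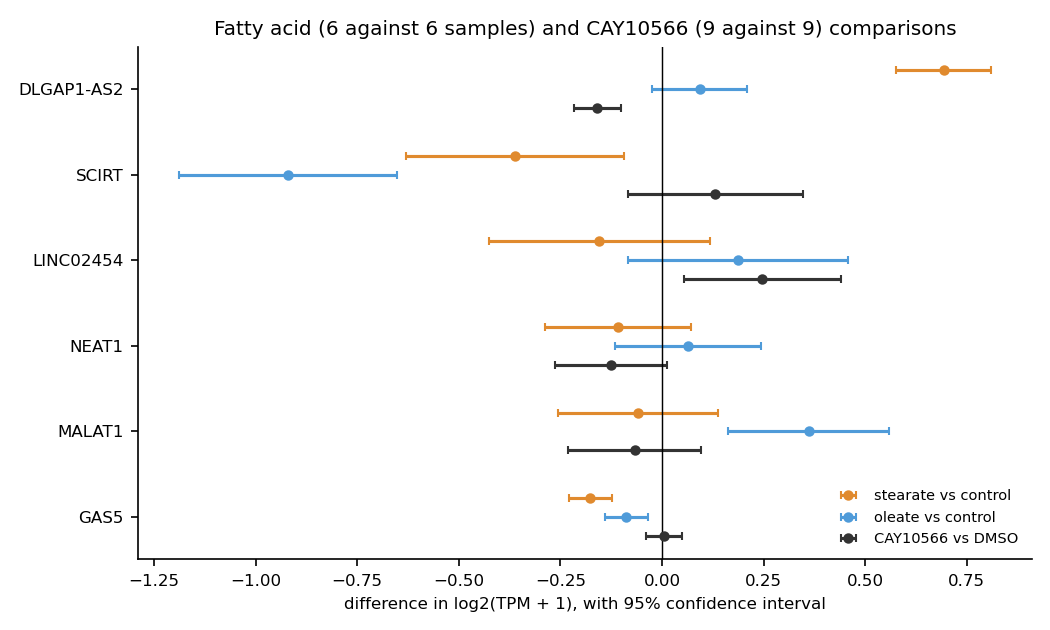
Differences in log2(TPM + 1) (horizontal axis) for each lncRNA (rows), as points with 95% confidence intervals, for stearate (orange) and oleate (blue) against control, with 6 against 6 samples, and CAY10566 against DMSO (black), with 9 against 9. The DLGAP1-AS2 stearate, SCIRT oleate and LINC02454 CAY10566 points rest on samples used to select those genes, and the GAS5 intervals are the narrowest.

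NEAT1 (ENSG00000245532), the paraspeckle scaffold, is read from chromosome 11 between 65422774 and 65445540 on the plus strand as an unspliced RNA of 22743 bases in its canonical form. It did not pass the test in any comparison. Control samples ranged from 117 to 147 TPM with a median of 122, stearate samples from 97.1 to 136 with a median of 122, and oleate samples from 116 to 159 with a median of 130.3, so the groups overlapped widely. The difference from control was -0.11 with stearate (95% confidence interval -0.29 to 0.07; limma, adjusted p = 0.398; exact permutation test, p = 0.286) and 0.06 with oleate (-0.11 to 0.24; adjusted p = 0.622; exact p = 0.455), and the latter was negative with size factors (-0.03) and with length and GC trends removed (-0.11). CAY10566 differed from DMSO by -0.13 (-0.26 to 0.01; limma, adjusted p = 0.945; exact p = 0.101). With oleate the 3 CAY10566 samples (130, 126 and 116 TPM) lay below the 3 DMSO samples (131, 145 and 159 TPM), although the nearest 2 values were 129.7 and 131.

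MALAT1 (ENSG00000251562) lies close by on chromosome 11, from 65497640 to 65508073 on the plus strand, also without introns in its canonical form. It was higher with oleate than in either other group. The oleate+DMSO samples held 59.0, 52.8 and 62.4 TPM and the oleate+CAY10566 samples 55.02, 49.1 and 44.9 TPM. Control samples ranged from 34.6 to 50.6 TPM with a median of 41.0, and stearate samples from 33.8 to 46.4 with a median of 40.1, so that 4 of 6 oleate samples lay above every control sample. Oleate averaged 53.9 ± 6.38 TPM against 41.8 ± 6.18 TPM in control, a rise of 0.36 (SE 0.094, 95% confidence interval 0.16 to 0.56; limma, adjusted p = 0.0107; exact permutation test, p = 0.0130). The stearate group held 40.0 ± 4.36 TPM, and stearate against oleate gave -0.42 (limma, adjusted p = 0.00371; exact p = 0.00433). Stearate and control differed by -0.06 (-0.26 to 0.14; adjusted p = 0.694).

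The oleate rise of MALAT1 depended on the samples and the scaling. It was 0.45 among DMSO samples, without overlap, and 0.27 among CAY10566 samples, with overlap (adjusted p = 0.517 in the fit of those samples alone). With size factors it was 0.26 (adjusted p = 0.0446), too small to be called, and with length and GC trends removed it was 0.23 and did not pass (adjusted p = 0.0643). Stearate against oleate was -0.56 in DMSO samples only (adjusted p = 0.0285) and -0.28 in CAY10566 samples only, where it did not pass (adjusted p = 0.273). Without any 1 sample the oleate rise lay between 0.31 and 0.42 and passed (adjusted p from 0.0041 to 0.0308). CAY10566 against DMSO gave -0.07 (-0.23 to 0.10; adjusted p = 0.998). MALAT1 and the long form of NEAT1 are known to be stabilised at their ends by a structure other than a poly(A) tail, and the library kit selects poly(A) RNA. The longest run of A within the MALAT1 gene, shown because such runs can bind oligo(dT), has 13 bases (capitals) and ends 6 bases before the small tRNA-like RNA that is cut from the transcript; it is printed with its surroundings, chr11:65506068-65506126 on the plus strand of hg38.
MALAT1: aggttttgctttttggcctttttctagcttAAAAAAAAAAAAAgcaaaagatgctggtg
The longest run of A in NEAT1 has 22 bases. The part that capture of these runs plays in the levels of NEAT1 and MALAT1 was not tested.

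GAS5 (ENSG00000234741), the snoRNA host, lies on chromosome 1 from 173858559 to 173868882 on the minus strand and has 12 exons in 768 bases. It fell by a small amount with both fatty acids, without overlap with control for stearate and with overlap for oleate. The DMSO samples held 1132, 1106 and 1152 TPM and the CAY10566 samples 1105, 1087 and 1029.7 TPM. With stearate the values were 945, 966 and 969 TPM in DMSO and 992, 998 and 979 TPM in CAY10566, all below the lowest control sample. With oleate they were 997, 1036 and 1029 TPM in DMSO and 1073, 1016 and 1067 TPM in CAY10566, of which 3 were below every control sample.

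Stearate averaged 975 ± 19.5 TPM against 1102 ± 42.2 TPM in control (n = 6 each), a fall of 11.5%, or -0.18 on the log2 scale (SE 0.026; limma, adjusted p = 0.000114). The exact permutation test gave p = 0.0022, the smallest that 6 against 6 allows. Oleate averaged 1037 ± 29.5 TPM, a difference of -0.09 (SE 0.026; adjusted p = 0.0184; exact p = 0.0152), and stearate lay below oleate by the same amount (adjusted p = 0.0195; exact p = 0.00433). Neither fall was large enough to be called. The step between stearate and oleate was -0.09 in DMSO samples only (adjusted p = 0.0602) and in CAY10566 samples only (adjusted p = 0.224), and passed in neither. The stearate difference was -0.24 among DMSO samples and -0.12 among CAY10566 samples, without overlap in both, and the oleate difference was -0.15 and -0.03. In the CAY10566 samples alone neither passed the test (adjusted p = 0.156 and 0.762). With size factors the stearate difference was -0.24 and the oleate difference -0.19, and stearate against oleate no longer passed (-0.05, adjusted p = 0.446).

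Over all 9 against 9 samples the CAY10566 effect on GAS5 was 0.0046 (95% confidence interval -0.04 to 0.05; limma, adjusted p = 0.999; exact permutation within fatty acid groups, p = 0.834). Without fatty acid the CAY10566 samples lay below the DMSO samples, by -0.07, and with stearate they lay above them, by 0.04. The difference between these effects was 0.12 with stearate and 0.12 with oleate (SE 0.043 each; adjusted p = 0.501 and 0.449, unadjusted 0.0144 and 0.0149), and neither passed. Among all tested genes 0.00725% (1 of 13789) passed for the interaction with stearate and 0% for that with oleate by limma, with 1290 and 1415 at an unadjusted p under 0.05, and the 1 gene was not among the 6 lncRNAs.

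The share of lncRNAs called was 5.41% for stearate, 5.18% for oleate and 8.74% for stearate against oleate, beside 5.35%, 6.9% and 6.37% of all genes, and the share that passed the FDR alone was 9.36%, 8.74% and 11.9%, beside 19.4%, 25.7% and 21.1% of all genes. For stearate 33 of 1293 were called higher and 37 lower, and for oleate 47 and 20. The balance depended on the scaling, since with size factors 26 were higher and 54 lower for stearate and 24 higher and 33 lower for oleate. For CAY10566 against DMSO no lncRNA passed by limma, with 84 at an unadjusted p under 0.05. Besides DLGAP1-AS2, the largest called rises with stearate among lncRNAs of at least 5 TPM were those of LINC01278 (0.44), LINC02967 (0.42), LUCAT1 (0.41) and CRNDE (0.40). LUCAT1, a stress-responsive lncRNA, held 21.5 ± 1.44 TPM against 16.1 ± 2.35 TPM in control (adjusted p = 0.000918). The largest falls were those of ENSG00000232110 (-0.67), LINC00973 (-0.66), MIRLET7BHG (-0.58), LIPE-AS1 (-0.55) and IGFL2-AS1 (-0.55). MIRLET7BHG, the host of let-7 microRNAs, held 6.42 ± 0.770 TPM against 10.0 ± 0.578 TPM (adjusted p = 7.92e-05).

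For oleate the 5 largest called rises, from 0.63 to 0.71, were of lncRNAs without a symbol, led by ENSG00000273760 with 7.03 ± 1.53 TPM against 3.86 ± 0.661 TPM in control (adjusted p = 0.00280). Of well-known lncRNAs on a list of 48 names, 26 were tested. With stearate 3 rose (OIP5-AS1, LUCAT1 and CRNDE) and 5 fell (H19, PVT1, UCA1, LINC00973 and MIRLET7BHG), and with oleate 4 rose (OIP5-AS1, NORAD, TUG1 and LINC00511) and 0 fell; all but LINC00973, MIRLET7BHG, OIP5-AS1, NORAD, LUCAT1 and CRNDE were named after their values were seen. The 8 that passed with stearate and 4 with oleate stand beside 121 and 113 of the 1293 lncRNAs, of which 56 rose and 65 fell with stearate and 75 rose and 38 fell with oleate. The median difference of the list was 0.05 for stearate and 0.11 for oleate, beside 0.06 and 0.09 over all genes, and with size factors 2 rose and 5 fell for stearate and 3 rose and 2 fell for oleate, beside 41 rises and 86 falls and 30 rises and 63 falls among the 1293 lncRNAs. OIP5-AS1, a lncRNA that binds the RNA-stabilising protein HuR, held 49.0 ± 4.66 TPM with oleate against 36.5 ± 3.27 TPM (0.41, adjusted p = 0.000708).

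**Figure D3:**
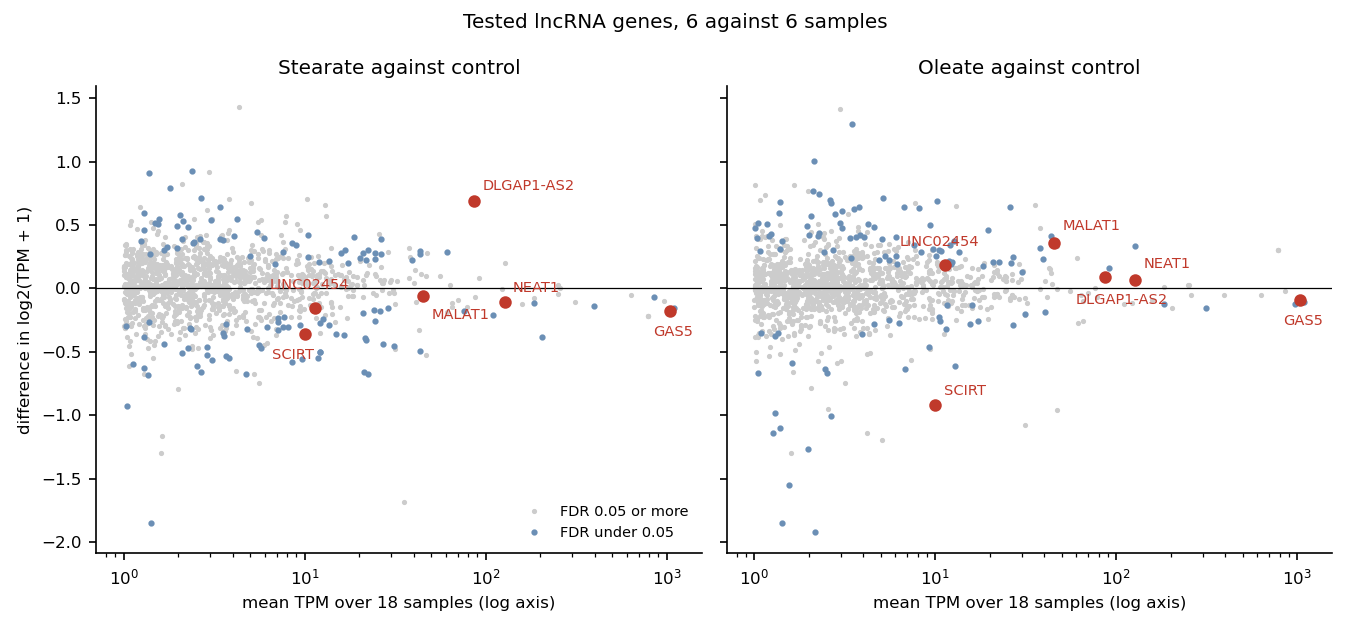
Difference in log2(TPM + 1) (vertical axes) against mean TPM (horizontal axes, logarithmic) for the 1293 tested lncRNA genes, for stearate (left) and oleate (right) against control; blue points passed an FDR of 0.05, grey points did not, and red points are the 6 named lncRNAs. DLGAP1-AS2 stands at 0.69 among lncRNAs of its level with stearate, and SCIRT at -0.92 with oleate.

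Other snoRNA hosts were compared with GAS5. Of 32 listed host lncRNAs other than GAS5, 26 were tested. With stearate 5 fell (ZFAS1, SNHG32, SNHG16, SNHG29 and SNHG11) and 1 rose (SNHG25), and with oleate 6 fell (ZFAS1, SNHG5, SNHG8, SNHG12, SNHG3 and SNHG6) and 1 rose (SNHG4); apart from SNHG25, SNHG4 and SNHG29 these were named after their values were seen. Those that passed were thus 6 and 7 of 26, beside 19.4% and 25.7% of all genes, of which 5.97% fell with stearate and 2.7% with oleate. The falls were small, from -0.07 to -0.18 for stearate and from -0.10 to -0.19 for oleate, and none was large enough to be called. ZFAS1, more abundant than GAS5 at a mean of 1097 TPM, changed by -0.16 with stearate (adjusted p = 0.000733) and -0.10 with oleate (adjusted p = 0.0114). SNHG25 rose by 0.93 (adjusted p = 0.0446) at the low level of 3.57 ± 1.74 TPM against 1.56 ± 1.49 TPM. The median difference of the hosts was -0.05 for stearate and -0.04 for oleate, beside 0.06 and 0.09 over all genes. With size factors 8 fell and 0 rose for stearate and 11 fell and 0 rose for oleate, while 10.2% and 9.12% of all genes fell. With length and GC trends removed 7 fell and 2 rose for stearate and 3 fell and 1 rose for oleate, while 5.17% and 1.94% of all genes fell. Both comparisons share the same control samples.

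**Figure D4:**
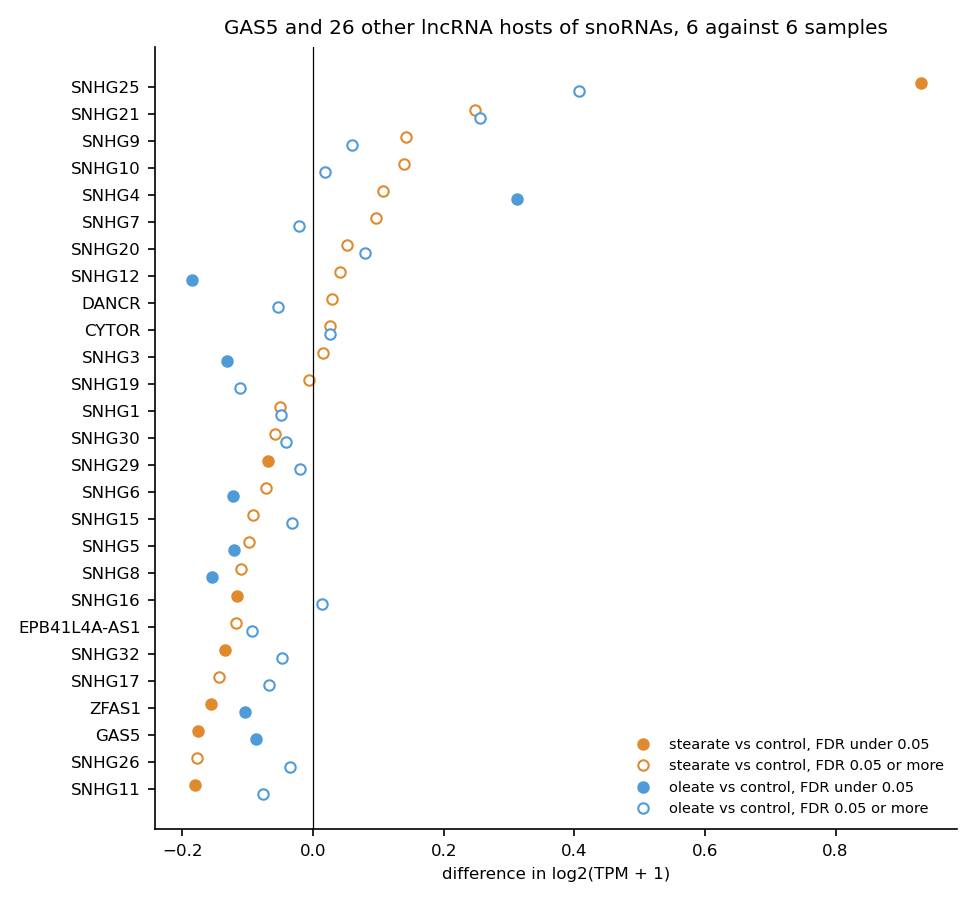
Difference in log2(TPM + 1) from control (horizontal axis) for GAS5 and 26 other tested snoRNA host lncRNAs (rows, ordered by the stearate value); orange points are stearate and blue points oleate, filled where the FDR was under 0.05. GAS5 (-0.18) and ZFAS1 (-0.16) are among the lowest with stearate, and SNHG25 (0.93) is the highest.

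The proteins that work with these RNAs were described by 3 lists, to be read beside all genes, of which 13.5% rose and 5.97% fell with stearate and 23% rose and 2.7% fell with oleate, with medians of 0.06 and 0.09. With size factors 7.92% of all genes rose and 10.2% fell with stearate and 9.07% rose and 9.12% fell with oleate. With length and GC trends removed 13.1% rose and 5.17% fell with stearate and 22.4% rose and 1.94% fell with oleate. Of 19 nonsense-mediated decay factors, which degrade spliced RNAs such as that of GAS5, 2 rose with stearate (SMG8 by 0.26, and NBAS, named after its value was seen, by 0.16) and 10 rose with oleate, and none fell. The largest rise with oleate was that of SMG1, the kinase that phosphorylates the decay factor UPF1, with 36.8 ± 5.17 TPM against 22.8 ± 7.38 TPM (0.71, adjusted p = 0.00328), followed by XRN1, a nuclease that digests decapped RNA (0.48, adjusted p = 0.00851), for which the stearate difference was 0.34 (adjusted p = 0.0507). The list median was 0.06 for stearate and 0.13 for oleate, and with size factors 1 and 5 rose. With length and GC trends removed 1 and 11 of the decay factors rose, and 0 fell. Of 25 paraspeckle proteins, which assemble on NEAT1, 11 rose with stearate and 15 with oleate, and none fell. The largest rises were those of FAM98A (0.35 with stearate and 0.43 with oleate) and RBM12 (0.34 and 0.44). With size factors 5 rose with stearate, and 4 rose and 2 fell with oleate, and with length and GC trends removed 6 and 10 rose. The list medians were 0.10 and 0.11, beside 0.06 and 0.09 over all genes.

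Of 28 proteins of the nuclear speckles, where MALAT1 collects, 4 rose and 1 fell with stearate and 15 rose with oleate. SRSF5, a splicing factor, rose by 0.33 with stearate (198 ± 9.32 TPM against 157 ± 9.76 TPM; adjusted p = 4.76e-05), and the kinase CLK4 (0.31) and the splicing factor SRSF1 (0.31) rose most with oleate. Of all genes 13.5% rose and 5.97% fell with stearate and 23% rose and 2.7% fell with oleate. The list medians were 0.05 and 0.15, beside 0.06 and 0.09 over all genes. With size factors 3 rose and 3 fell with stearate while 5 rose and 1 fell with oleate. These stand beside the shares of all genes with size factors, 7.92% and 10.2% with stearate and 9.07% and 9.12% with oleate. With length and GC trends removed 4 rose and 2 fell with stearate, beside 13.1% and 5.17% of all genes. With oleate 15 then rose and 0 fell, beside 22.4% and 1.94%.

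Cell type markers were examined in the same fits. Among the 5 epithelial markers KRT18, KRT8 and KRT19 fell with stearate and KRT18 and KRT19 fell with oleate, KRT18 by 0.44 on the log2 scale with stearate (651 ± 13.0 TPM against 883 ± 42.7 TPM; adjusted p = 6.70e-07). The 3 stearate falls also passed with size factors and with length and GC trends removed. With size factors CDH1 fell too with stearate and KRT8 with oleate, while with length and GC trends removed neither oleate fall passed and EPCAM rose by 0.0827 (adjusted p = 0.0348). KRT8, KRT19 and EPCAM were named after their values were seen. On plain TPM no tested marker of the serous ovarian (1) or of the stromal, endothelial and immune lists (3) passed for either fatty acid against control. CD68, a macrophage and lysosomal protein, passed with stearate with size factors (-0.19, adjusted p = 0.0185) and with oleate with length and GC trends removed (0.22, adjusted p = 0.0158). Between stearate and oleate it passed on plain TPM, lower with stearate (-0.27, limma, adjusted p = 0.00245). In that comparison 4 of the 5 epithelial markers also passed as lower with stearate, as did 1967 of all 13789 genes. With CAY10566 against DMSO no gene of any list passed the test by limma.

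Genes beside and across the 6 lncRNAs were examined next. DLGAP1 itself averaged 0.328 TPM and was not tested, and DLGAP1-AS1, which ends 4637 bases before DLGAP1-AS2 on the same strand, held 59.6 ± 12.8 TPM with stearate against 68.4 ± 17.4 TPM in control (-0.19; limma, adjusted p = 0.468). SCIRT is crossed on the other strand by LINC03040, which held 31.8 ± 2.38 TPM in control, 23.3 ± 3.16 TPM with stearate (-0.44, adjusted p = 0.000437) and 25.9 ± 1.39 TPM with oleate (-0.28, adjusted p = 0.00968). The kit keeps the strand of the RNA, but whether the strand was used in quantification is not stated in the sources used here, so reads of SCIRT and LINC03040 cannot be told apart with certainty. Unlike SCIRT, LINC03040 had its lowest mean with stearate. VEGFA, 145085 bases from SCIRT, and MRPL14 on its other side differed from control by between -0.15 and 0.12, and MRPL14 passed with stearate (-0.11, adjusted p = 0.0354).

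LINC02454 lies across MSRB3-AS1 on the other strand, which averaged 0.652 TPM. Its neighbour MSRB3, an enzyme that repairs oxidised methionine, did not pass for either fatty acid, while the pseudogene RPSAP52, 143851 bases away, fell with stearate from 1.46 ± 0.617 to 0.658 ± 0.340 TPM (-0.56, adjusted p = 0.0193). FRMD8 and FAUP4, tested neighbours of NEAT1, did not pass for either fatty acid. RC3H1, a repressor of mRNAs beside GAS5, rose by 0.41 with oleate (adjusted p = 0.0111), and CENPL did not pass.

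The genes whose pattern over the 18 samples was most like each lncRNA were found by Pearson's r on log2(TPM + 1) among 10141 genes with a mean of at least 5 TPM; r is a description here, as the 18 samples share conditions and each shares 1 scaling over all its genes. For DLGAP1-AS2 they were CXCL3, a neutrophil chemokine (r = 0.963), EGR1, an immediate early transcription factor (0.959), and NFKBIA, an inhibitor of NF-κB (0.957). EGR1, which like DLGAP1-AS2 was lower with CAY10566 in all 3 fatty acid groups, averaged 42.3 TPM with stearate, 24.2 with oleate and 19.3 in control, and CXCL3 149, 101 and 100.4 TPM. For SCIRT they were FDPS and DHCR7, enzymes of isoprenoid and cholesterol synthesis (r = 0.866 and 0.834), and SLC25A1, the mitochondrial citrate carrier (0.851). FDPS averaged 164 TPM with oleate, 209 with stearate and 215 in control, and DHCR7 65.1, 87.3 and 90.1 TPM. FDPS was also lower with stearate+DMSO (191 ± 5.38 TPM) than with stearate+CAY10566 (226 ± 2.93 TPM), the order that SCIRT showed.

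For LINC02454 the values of r were lower: EPHB4, an ephrin receptor (0.776), and ENSG00000280800 and ENSG00000280614 (0.733 each), a pair of lncRNA identifiers with identical values in these samples, whose level is uncertain since reads of a sequence held in several copies can be split between them. EPHB4 held 8.33 ± 0.760 TPM with stearate+DMSO and 10.8 ± 0.178 TPM with stearate+CAY10566. SRP9, a subunit of the signal recognition particle, was near the top for both NEAT1 (0.845) and MALAT1 (0.891), with YY1 (0.858) and PAQR4 (0.841) for NEAT1 and ENSG00000273760 (0.871) and CHML (0.868) for MALAT1. For GAS5 they were C19orf33 and the small GTPase RRAS (0.911 each) and the snoRNA host SNHG29 (0.887).

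**Figure D5:**
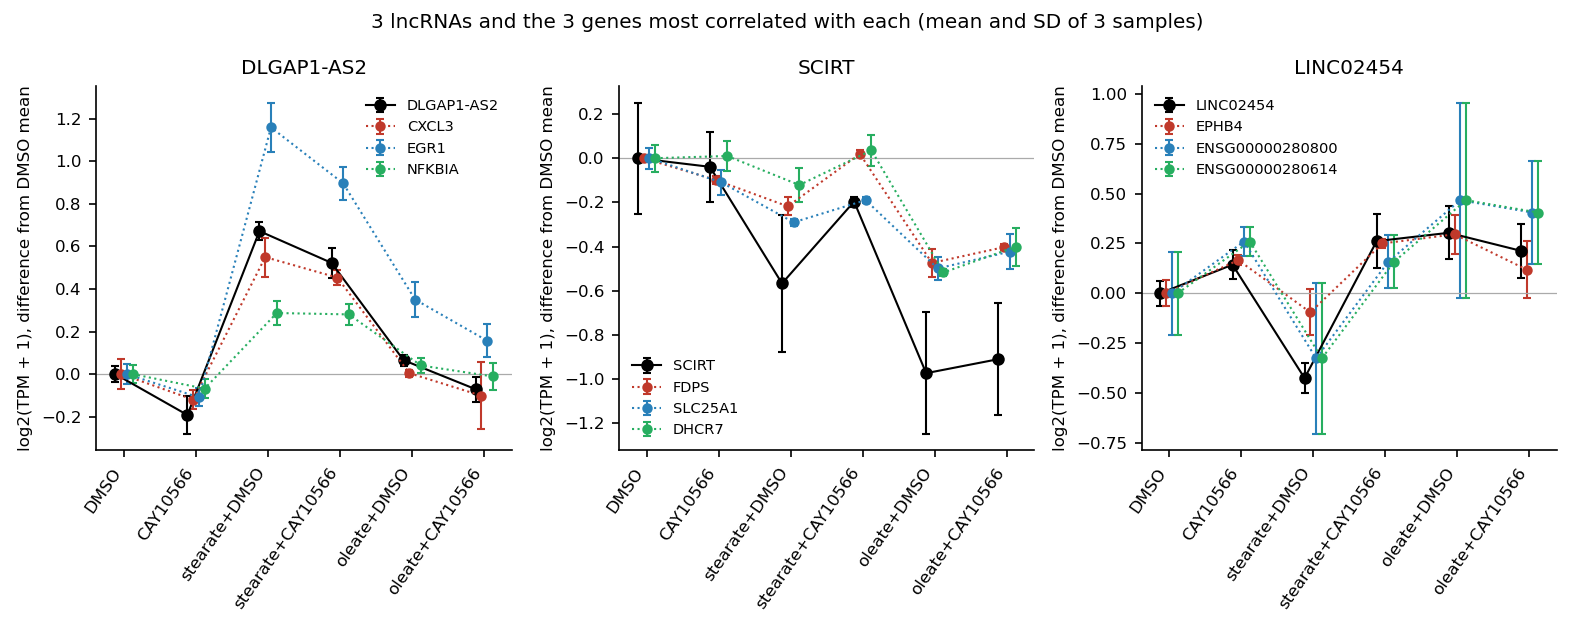
Difference from the DMSO mean in log2(TPM + 1) (vertical axes) by condition (horizontal axes) for DLGAP1-AS2, SCIRT and LINC02454 (black) and the 3 genes with the highest r with each (colours); points are means and bars the SD of 3 samples. EGR1 exceeds DLGAP1-AS2 in the stearate conditions, SCIRT lies below its 3 genes with oleate, and ENSG00000280800 and ENSG00000280614 coincide.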

How the data were processed

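RNA of 18 OVCAR5 samples was sequenced by the authors with a stranded poly(A) kit as 100 bp paired reads, trimmed with Trim Galore, aligned with STAR 2.7.1a to GRCh38 (Ensembl release 99) and quantified with RSEM. The values the authors deposited are TPM per gene; depth is unknown, and the spread between samples alone gives the precision. Of 60483 identifiers, 56321 took a symbol from the reference tables, and 1 line naming no gene was left out. Coordinates are those of GENCODE release 44, a later annotation of the same build.

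From these values limma 3.58.1 (R 4.3.3; lmFit, eBayes with a trend) was fitted to log2(TPM + 1) of 13789 genes (mean of 1 TPM or more), in 3 fatty acid groups of 6, with CAY10566 over 9 against 9 samples with the fatty acid as covariate, and in 6 conditions of 3 for effects within a fatty acid and interactions. A fold change on this scale understates that of low genes. Adjusted p-values are Benjamini-Hochberg over all tested genes, and single values had a two-sided exact permutation test; permuting the inhibitor within fatty acid groups was chosen after seeing the data. The fit was tested on simulated data. Figures used matplotlib 3.10.9.

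The members and lists were chosen with earlier results of these data known. Named genes followed a rule: the 6 lncRNAs, tested neighbours and overlapping genes within 500 kb, the 3 genes with the highest r, the 2 largest changes of each list and the 5 largest called rises and falls among lncRNAs of at least 5 TPM. Genes outside it are marked in the text. Some neighbouring genes are not reported here. Alternatives were a pseudocount of 0.1, no filter, a mean of at least 5 TPM, no trend, median-of-ratios size factors, removal of length and GC trends (splines with 3 degrees of freedom; 98.8% of genes had a length), the inhibitor as covariate, each inhibitor arm alone, the replicate number as a block and each sample left out.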

Additional observations from a re-analysis of the deposited data

Results flagged for a closer look

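Only for GAS5 among the 6 lncRNAs did the CAY10566 samples all lie below the DMSO samples in 1 fatty acid group and all above them in another. The share of all genes with such a pattern was not computed. Without fatty acid the 3 CAY10566 samples (1105, 1087 and 1029.7 TPM) lay below the 3 DMSO samples (1132, 1106 and 1152 TPM), a difference of -0.0742 on the log2(TPM + 1) scale. With stearate the 3 CAY10566 samples (992, 998 and 979 TPM) lay above the 3 DMSO samples (945, 966 and 969 TPM), a difference of 0.0444. The difference between these effects, 0.119 (SE 0.043), did not pass in limma (adjusted p = 0.501, unadjusted 0.0144), and its adjusted p ranged from 0.329 to 0.779 over 25 alternatives. Without any 1 replicate the effect without fatty acid lay between -0.0952 and -0.0443. The nearest values without fatty acid, 1105 and 1106 TPM, were close together. A search for a sample apart from the others in 18 groups of 6, by Dixon's gap at a critical value of 0.625, found none.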

How the results depend on the processing

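Each result was recomputed under up to 28 alternatives. Of 1154 values of the 6 lncRNAs, 1099 kept their direction and their side of the threshold, 16 fell short of it, 14 newly passed and 25 changed sign. The causes were not tested.

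Genes called for stearate numbered 738 (70 lncRNAs), and 1114 in DMSO samples only, 171 (13) in CAY10566 samples only and 32 lncRNAs at a mean of at least 5 TPM. For oleate there were 951 (67), and 460 with size factors, 557 with length and GC trends removed, 2001 in DMSO samples only, 3 (1) in CAY10566 samples only and 21 lncRNAs at 5 TPM. For stearate against oleate there were 879 (113), and 333 (21) in CAY10566 samples only, 58 lncRNAs in DMSO samples only and 51 at 5 TPM. With size factors the split of all called genes moved from 477 higher and 261 lower to 276 and 369 for stearate, from 891 and 60 to 315 and 145 for oleate, and from 220 and 659 to 311 and 503 between the acids. Without any 1 replicate the counts ranged from 631 to 1065 for stearate (lncRNAs 61 to 90), from 678 (without DMSO replicate 2) to 1557 (without CAY10566 replicate 3) for oleate (lncRNAs 45 to 100) and from 747 to 939 between the acids (lncRNAs 82 to 130).

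The CAY10566 count without fatty acid (0) became 1 with a pseudocount of 0.1, and that with oleate (0) became 2 (1 lncRNA) without a filter. The count with stearate (1, LINC02454) became 4 (2 lncRNAs) without a filter. The interaction with stearate (1) became 2 with a pseudocount of 0.1 or no filter, and 0 with no trend, size factors, the replicate block or length and GC trends removed. The interaction with oleate (0) became 1 with a pseudocount of 0.1, no filter, no trend or length and GC trends removed. Without any 1 replicate these counts, and those of lncRNAs, ranged from 0 to 2, except that lncRNAs for CAY10566 with stearate ranged from 0 to 1 and both counts with oleate stayed at 0.

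Differences that changed sign were those of DLGAP1-AS2 for oleate with size factors (-0.0056), NEAT1 for oleate with size factors (-0.0345), in CAY10566 samples only (-0.0462) and with length and GC trends removed (-0.11), and LINC02454 in CAY10566 samples only for stearate (0.12) and stearate against oleate (0.0483). For CAY10566 without fatty acid they were SCIRT with length and GC trends removed (0.0058) and NEAT1 with size factors (-0.0201) and length and GC trends removed (-0.14). Without any 1 replicate the sign changed within ranges of -0.0030 to 0.0188 for GAS5 with CAY10566, and without fatty acid of -0.15 to 0.0858 for MALAT1, -0.0921 to 0.0848 for NEAT1 and -0.17 to 0.0851 for SCIRT. With stearate the range was -0.0335 to 0.13 for MALAT1 and with oleate -0.0470 to 0.22 for SCIRT.

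With no trend GAS5 fell short for oleate (adjusted p = 0.0534) and for stearate against oleate (adjusted p = 0.0601). Replicate numbers were not taken as pairs: over 45 same-numbered pairs the correlation of deviations from condition means ran from -0.18 to 0.10 (median 0.012), and 5 of 18 samples correlated best with their own number. With the number as a replicate block 720 genes were called for stearate, 924 for oleate, 867 between the acids and 0 for CAY10566, and no call of the 6 lncRNAs changed. Depth is unknown, and 3 samples a condition limit what could be shown.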
